A study of Mus musculus with 36 samples.

Results

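The 7 genes described here are Kdm6a, Ddx3x, Utp14a, Eif2s3x, Pbdc1, Kdm5c and Mid1, a set of mouse X-linked genes known to escape X inactivation, out of 966 protein-coding genes on chromosome X. Each gene was read in the 250 kb window of chromosome X (mm10) that holds its midpoint. The set was chosen by gene name, with earlier results of these data known. Kdm6a, Ddx3x, Utp14a and Eif2s3x lie in the part of the chromosome with signal for each allele, and Pbdc1, Kdm5c and Mid1 lie past its end and were read as total signal. RNA was not measured, so whether these genes were expressed from the induced chromosome in these cells could not be checked. All 7 windows passed the filter on low signal, among 353 allelic windows and 669 windows of total signal.

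In female mammals 1 of the 2 X chromosomes is silenced in cis by Xist RNA, and Polycomb complexes deposit ubiquitin on histone H2A (H2AK119ub1) along the chromosome that Xist coats. Spen is an RNA-binding protein that reaches Xist through its RNA recognition motifs (RRM) and calls in co-repressors through its SPOC domain. Genes that escape stay active on the silenced chromosome in at least some tissues, which makes the mark at their position a point of interest.

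H2AK119ub1 was measured by native chromatin immunoprecipitation and sequencing in 24 libraries, with 12 input libraries, from female 129S x Cast hybrid mouse embryonic stem cells. All cells, controls included, carried a TetOn promoter in place of the Xist promoter on the 129S allele, and doxycycline at 1 µg/mL induced Xist. The 24 h series held 2 induced and 2 uninduced libraries of Spen RRM deletion clones (C3 and D4, both labelled as making a spurious truncated product), 2 and 2 of SPOC mutant clones (E7 and H1), and 3 and 3 of WT cells. The 3 h series held 2 and 2 libraries of Spen RRM deletion clones (C3, and C4, labelled full KO), 2 and 2 of SPOC mutant clones (C11 and H1), and 1 and 1 of WT cells. Per the study's design text, Spen, SPOC and each WT replicate had an occasion of their own in the 24 h series, so a genotype's effect and that of its occasion cannot be told apart there, while the 3 h series was handled on 1 day. The labels name clones and WT replicates but no separate cultures beyond these, so p-values cover the spread between these libraries. The files cover chromosome X only, so neither Spen, the mutated gene, nor markers of embryonic stem cells could be read as a check of the labels.

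For 4 libraries, the H2AK119ub1 libraries of SPOC clones E7 and H1 in the 24 h series, the title and the file name give opposite states. The states of the file names are used here. Under the titles every SPOC change at 24 h has the opposite sign, and each SPOC value at 24 h below carries that condition. Over all allelic windows the genome 2 share was 64.9% and 65.3% in the SPOC libraries whose file names say induced, and 51.2% and 51.5% in those whose file names say uninduced. In the same series it was between 63.4% and 63.5% in induced and 51.1% in uninduced Spen RRM deletion clones, and between 65.9% and 72.8% in induced and 51.7% and 52.2% in uninduced WT cells. In SPOC clones at 3 h, where title and file name give the same state, it averaged 68.4% in induced and 54.5% in uninduced libraries. These shares were not used to set the states. Over both series that share ranged between 48.7% and 73.8% in H2AK119ub1 libraries and between 50.8% and 51.5% in inputs. Summed over chromosome X, the total signal ranged between 116006 and 277241 in H2AK119ub1 libraries and between 177468 and 189684 in inputs. The number of reads behind a window is unknown, since the deposited values are a signal and not counts.

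Noncanonical Polycomb complexes that deposit H2AK119ub1 are known to be drawn to unmethylated CpG islands, so the promoters (250 bases before to 50 bases after the start, RefSeq, GRCm38.p6) are shown with each CG in capitals. All 7 genes had a promoter in the table. Their CG counts were 25 in Ddx3x, 21 in Kdm6a, Utp14a and Eif2s3x, 20 in Pbdc1, 13 in Kdm5c, and 2, 6 and 13 in the 3 promoters of Mid1, against a median of 8 over 960 promoters of protein-coding genes on X. Those of Eif2s3x, Ddx3x and Kdm6a are printed for the allelic results below, that of Kdm5c for the motif it shares with Eif2s3x, and that of Mid1 as the poorest in CG. The windows read for the genes hold the promoters of Ddx3x, Kdm6a, Utp14a, Eif2s3x and Pbdc1. The promoter of Kdm5c and the first promoter of Mid1 lie in the window before. The motif AAGATGGC (GCCATCTT on the other strand), the core of the motif known for the factor YY1, was found in the promoters of Eif2s3x and Kdm5c and in 3.33% of the 960 promoters.
Eif2s3x, chrX:94212602-94212901, minus strand: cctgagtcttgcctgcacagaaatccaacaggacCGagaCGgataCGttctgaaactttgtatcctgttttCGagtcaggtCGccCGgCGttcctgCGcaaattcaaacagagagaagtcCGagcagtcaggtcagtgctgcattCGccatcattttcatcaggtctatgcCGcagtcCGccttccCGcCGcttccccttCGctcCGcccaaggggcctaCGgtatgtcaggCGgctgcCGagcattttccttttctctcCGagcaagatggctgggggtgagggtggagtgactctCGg
Ddx3x, chrX:13280772-13281071, plus strand: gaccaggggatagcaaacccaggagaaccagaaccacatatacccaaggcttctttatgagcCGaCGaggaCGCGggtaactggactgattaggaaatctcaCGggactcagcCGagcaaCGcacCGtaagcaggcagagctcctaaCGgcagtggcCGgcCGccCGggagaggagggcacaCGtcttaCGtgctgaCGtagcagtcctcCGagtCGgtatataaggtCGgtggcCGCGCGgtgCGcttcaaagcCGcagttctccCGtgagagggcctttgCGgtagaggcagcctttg
Kdm6a, chrX:18162325-18162624, plus strand: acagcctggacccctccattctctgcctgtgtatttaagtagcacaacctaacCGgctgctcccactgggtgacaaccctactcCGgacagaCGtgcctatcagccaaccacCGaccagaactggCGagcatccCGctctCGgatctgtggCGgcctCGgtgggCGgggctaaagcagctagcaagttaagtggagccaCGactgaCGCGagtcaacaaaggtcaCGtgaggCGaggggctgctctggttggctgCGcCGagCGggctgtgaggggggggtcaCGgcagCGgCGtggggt
Kdm5c, chrX:152232977-152233276, plus strand: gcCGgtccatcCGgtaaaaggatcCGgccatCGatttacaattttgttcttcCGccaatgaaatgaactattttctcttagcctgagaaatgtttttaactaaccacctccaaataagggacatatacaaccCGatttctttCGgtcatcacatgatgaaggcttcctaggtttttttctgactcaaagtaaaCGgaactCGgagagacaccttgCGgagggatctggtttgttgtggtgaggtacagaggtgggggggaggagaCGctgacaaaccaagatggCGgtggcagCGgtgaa
Mid1, chrX:169684949-169685248, plus strand: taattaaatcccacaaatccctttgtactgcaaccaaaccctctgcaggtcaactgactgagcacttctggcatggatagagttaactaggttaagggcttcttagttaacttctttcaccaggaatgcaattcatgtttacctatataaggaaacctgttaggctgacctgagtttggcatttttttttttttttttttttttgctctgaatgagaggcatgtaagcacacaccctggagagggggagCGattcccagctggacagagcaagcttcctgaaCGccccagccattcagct

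Xist induction for 24 h raised the genome 2 over genome 1 ratio of H2AK119ub1 in all 4 allelic escape windows of WT cells, most at Eif2s3x and least at Kdm6a. None of the 4 rose past the threshold in Spen RRM deletion clones, and Utp14a and Eif2s3x did in SPOC mutant clones. Ddx3x, Utp14a and Eif2s3x gained less in Spen RRM deletion clones than in WT cells. Of all 353 allelic windows, 94.6% rose past the threshold in WT cells, 70.8% in Spen RRM deletion clones and 83.3% in SPOC clones. In Spen RRM deletion clones 23.5% of them gained less than in WT cells. A change is the mean log2 ratio of induced minus uninduced libraries, with its standard error (SE) from limma and a Benjamini-Hochberg (BH) adjusted p over all 353 windows. The ratio is formed within each library, so a scaling factor common to both allele files cancels in it; whether the authors used a common one is not given in the sources used here. In a bulk culture, a smaller share of cells with the mark and less mark per cell cannot be told apart. The strain behind each genome number is not given in the sources used here.

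Eif2s3x encodes a subunit of the translation initiation factor eIF2, and shares its window (chrX:94000001-94250000) with Zfx, a zinc-finger transcription factor gene. Zfx is listed among genes that escape in human and are silenced in mouse. It covers 76.0 kb of the window, against 23.9 kb for Eif2s3x, and the signal of both is read together. At 24 h the genome 2 share of the window was 56.5% and 50.5% in induced Spen RRM deletion clones C3 and D4, and 52.2% and 52.7% in the same clones uninduced. It was 66.7% and 65.4% in induced SPOC clones E7 and H1, and 51.5% and 53.8% in the uninduced clones. In WT cells it was 72.9%, 74.3% and 78.3% in induced replicates, against 52.2%, 53.4% and 54.2% in uninduced ones. Induced and uninduced libraries were fully apart in WT and SPOC cells, and they overlapped in Spen RRM deletion clones. The change was 0.07 ± 0.17 in Spen RRM deletion clones (adjusted p = 0.714), 0.81 ± 0.17 in SPOC clones (adjusted p = 1.4e-05) and 1.41 ± 0.14 in WT cells (adjusted p = 6.1e-18). In WT cells the rise stood on genome 2, whose log2 signal changed by 1.41 ± 0.17, while that of genome 1 changed by -0.0062 ± 0.032 (SD, n = 3 pairs).

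Ddx3x encodes a DEAD-box RNA helicase and lies in chrX:13250001-13500000 with Nyx. Its genome 2 share at 24 h was 53.5% and 53.9% in induced Spen RRM deletion clones, and 51.0% and 54.8% in uninduced ones. It was 56.2% and 59.4% in induced SPOC clones, and 52.2% and 53.2% in uninduced ones. In WT cells it was 66.7%, 69.9% and 72.0% in induced replicates, against 52.0%, 53.0% and 54.3% in uninduced ones. The induced and uninduced groups were apart in WT and SPOC cells, with the wider gap in WT cells, and they overlapped in Spen RRM deletion clones. The change was 0.05 ± 0.17 in Spen RRM deletion clones (adjusted p = 0.781), 0.30 ± 0.17 in SPOC clones (adjusted p = 0.095) and 1.02 ± 0.14 in WT cells (adjusted p = 2.8e-11).

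Utp14a encodes a component of the complex that processes the small ribosomal subunit, and lies in chrX:48250001-48500000 with Aifm1, Bcorl1 and Elf4. Its genome 2 share at 24 h was 51.1% and 50.2% in induced Spen RRM deletion clones, and 48.0% and 48.8% in uninduced ones. It was 57.0% and 56.1% in induced SPOC clones, and 50.1% and 47.7% in uninduced ones. In WT cells it was 64.5%, 65.0% and 69.7% in induced replicates, against 48.1%, 49.7% and 49.6% in uninduced ones. Induced libraries were above uninduced ones in all 3 genotypes, by the smallest margin in Spen RRM deletion clones. The change was 0.13 ± 0.17 in Spen RRM deletion clones (adjusted p = 0.476), 0.44 ± 0.17 in SPOC clones (adjusted p = 0.013) and 1.04 ± 0.14 in WT cells (adjusted p = 1.1e-11). The SPOC call was lost without clone E7 (0.49, adjusted p = 0.096) and without clone H1 (0.40, adjusted p = 0.168).

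Kdm6a encodes a demethylase of histone H3 that removes a methyl mark laid down by Polycomb, and its window (chrX:18000001-18250000) also holds Dusp21. Its genome 2 share at 24 h was 52.5% and 53.8% in induced Spen RRM deletion clones, and 55.1% and 50.5% in uninduced ones. It was 56.2% and 52.7% in induced SPOC clones, and 55.1% and 51.7% in uninduced ones. In WT cells it was 60.2%, 57.1% and 63.2% in induced replicates, against 52.4%, 55.9% and 51.7% in uninduced ones. Only the WT groups did not overlap, and there the log2 ratio of WT replicate 2 changed by 0.08 while those of replicates 1 and 3 changed by 0.46 and 0.69. The change was 0.03 ± 0.17 in Spen RRM deletion clones (adjusted p = 0.856), 0.07 ± 0.17 in SPOC clones (adjusted p = 0.694) and 0.41 ± 0.14 in WT cells (adjusted p = 0.0043). Without WT replicate 3 the WT change was 0.27 (adjusted p = 0.046). With each library's own input subtracted, in a fit that also leaves out WT replicate 3, which has no input, it was 0.45 (adjusted p = 0.056).

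**Figure D1:**
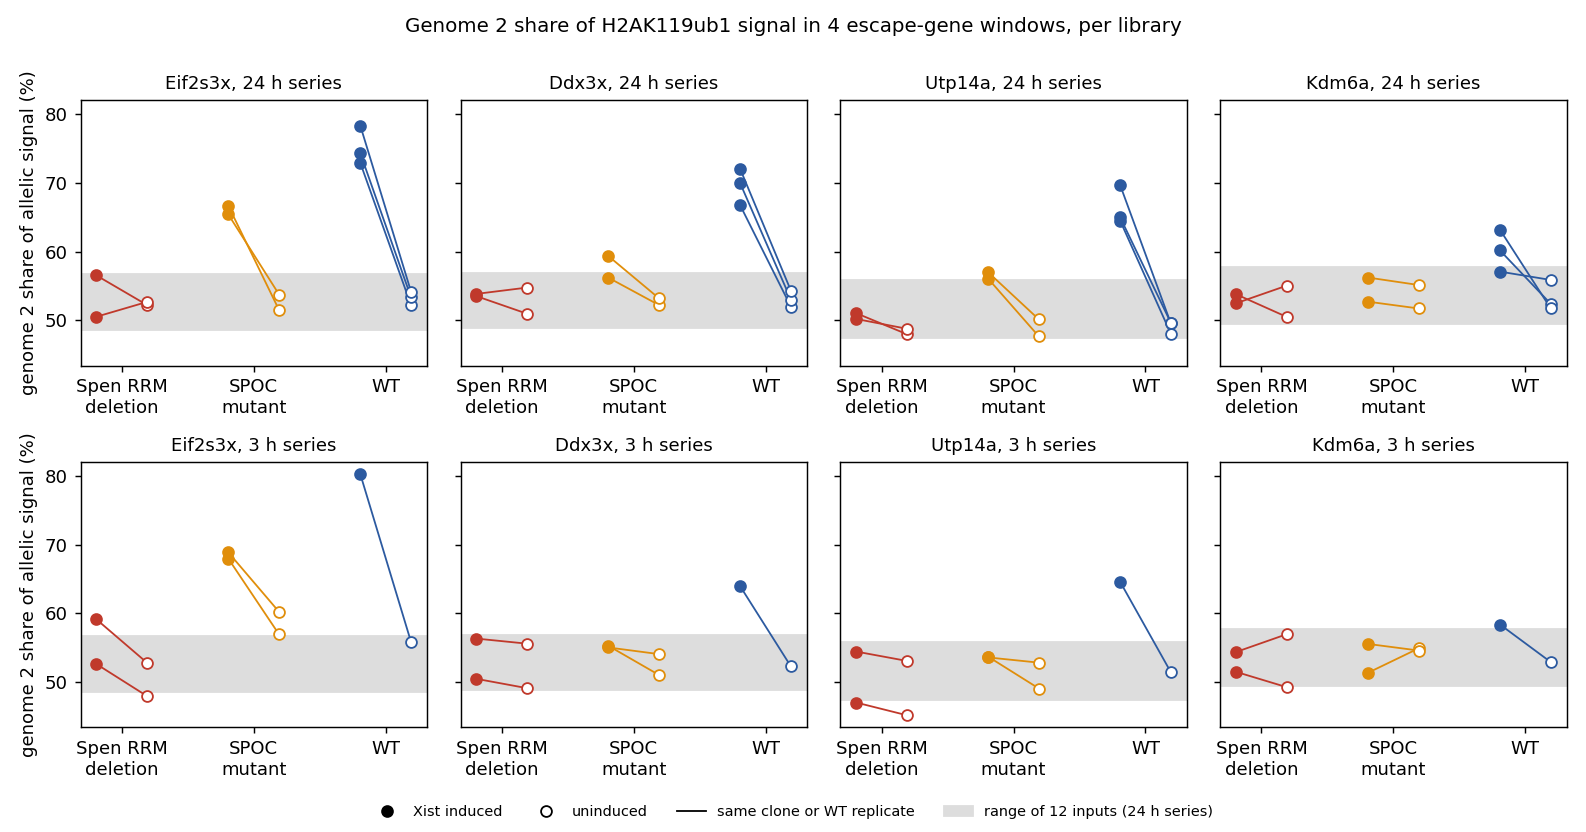
Genome 2 share of H2AK119ub1 signal (percent of genome 1 plus genome 2) in the windows of Eif2s3x, Ddx3x, Utp14a and Kdm6a in each library, with filled points for induced and open points for uninduced libraries, lines joining libraries of the same clone or WT replicate, and the grey band giving the range of the 12 inputs. In the 24 h series induced WT libraries lie at 72.9% to 78.3% for Eif2s3x and at 57.1% to 63.2% for Kdm6a, while induced Spen RRM deletion libraries lie within the input band in all 4 windows. SPOC states at 24 h are those of the file names.

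In input DNA the genome 2 share of these windows had medians of 52.2% for Kdm6a, 50.6% for Ddx3x, 50.8% for Utp14a and 50.5% for Eif2s3x over 12 libraries, with extremes of 47.5% and 57.8%. The induced WT libraries of the 24 h series were above the highest input of the same window in Ddx3x, Utp14a and Eif2s3x, and in 2 of 3 libraries in Kdm6a. Ordered by the mean share in induced WT cells, Eif2s3x (75.2% ± 2.8) was followed by Ddx3x (69.6% ± 2.7), Utp14a (66.4% ± 2.9) and Kdm6a (60.2% ± 3.0; SD, n = 3 each). The gap between Ddx3x and Utp14a was close to their spread, and Eif2s3x and Kdm6a stood off from their neighbours in that order by more than the larger SD.

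A rise in WT cells was not particular to the escape windows, since 94.6% of the 353 windows rose there with a median of 0.96. Counting from the highest rise, Eif2s3x ranked 28, Utp14a 145, Ddx3x 158 and Kdm6a 324. In size of rise Eif2s3x thus stood toward the top and Kdm6a toward the bottom. In Spen RRM deletion clones 70.8% of windows rose with a median of 0.68, and the 4 escape windows, none of them called, held ranks between 325 and 344. In SPOC clones 83.3% rose with a median of 0.71, and 2 of the 4 escape windows were called. With each library centred on its median window, all 4 escape windows fell in Spen RRM deletion clones, by 0.62 in Kdm6a, 0.60 in Ddx3x, 0.52 in Utp14a and 0.58 in Eif2s3x on the log2 scale. On that scale 30% of windows fell in Spen RRM deletion clones. Also centred, Kdm6a fell by 0.57 in WT cells, where 30.9% of windows fell, while Eif2s3x rose by 0.43, where 26.9% of windows rose.

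The difference between the change in Spen RRM deletion clones and the change in WT cells was -1.34 ± 0.22 at Eif2s3x (adjusted p = 7.5e-07), -0.96 ± 0.22 at Ddx3x (adjusted p = 0.00024) and -0.91 ± 0.22 at Utp14a (adjusted p = 0.00050). At Kdm6a it was -0.38 ± 0.22 (adjusted p = 0.215), and 23.5% of all windows were lower in this comparison. Counted from the highest, the difference at Eif2s3x ranked 350 of 353. With centred libraries Eif2s3x, Ddx3x and Utp14a were called as well, at -1.02, -0.64 and -0.58, where 19.5% of windows were lower and the median of all windows was 0.17, against -0.16 without centring.

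The SPOC change was lower than the WT change at Ddx3x (-0.72 ± 0.22, adjusted p = 0.033), while 5.1% of all windows were lower. That call was lost without SPOC clone E7 (-0.65, adjusted p = 0.528), without SPOC clone H1 (-0.78, adjusted p = 0.278) and without WT replicate 2 (-0.70, adjusted p = 0.108). The differences at Eif2s3x (-0.61 ± 0.22), Utp14a (-0.59 ± 0.22) and Kdm6a (-0.34 ± 0.22) did not pass the threshold. Spen RRM deletion clones gained less than SPOC clones at Eif2s3x (-0.74 ± 0.24, adjusted p = 0.038), where 6.52% of windows were lower. This call was lost without any of the 4 mutant pairs or without WT replicate 2, at values between -0.92 and -0.55.

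**Figure D2:**
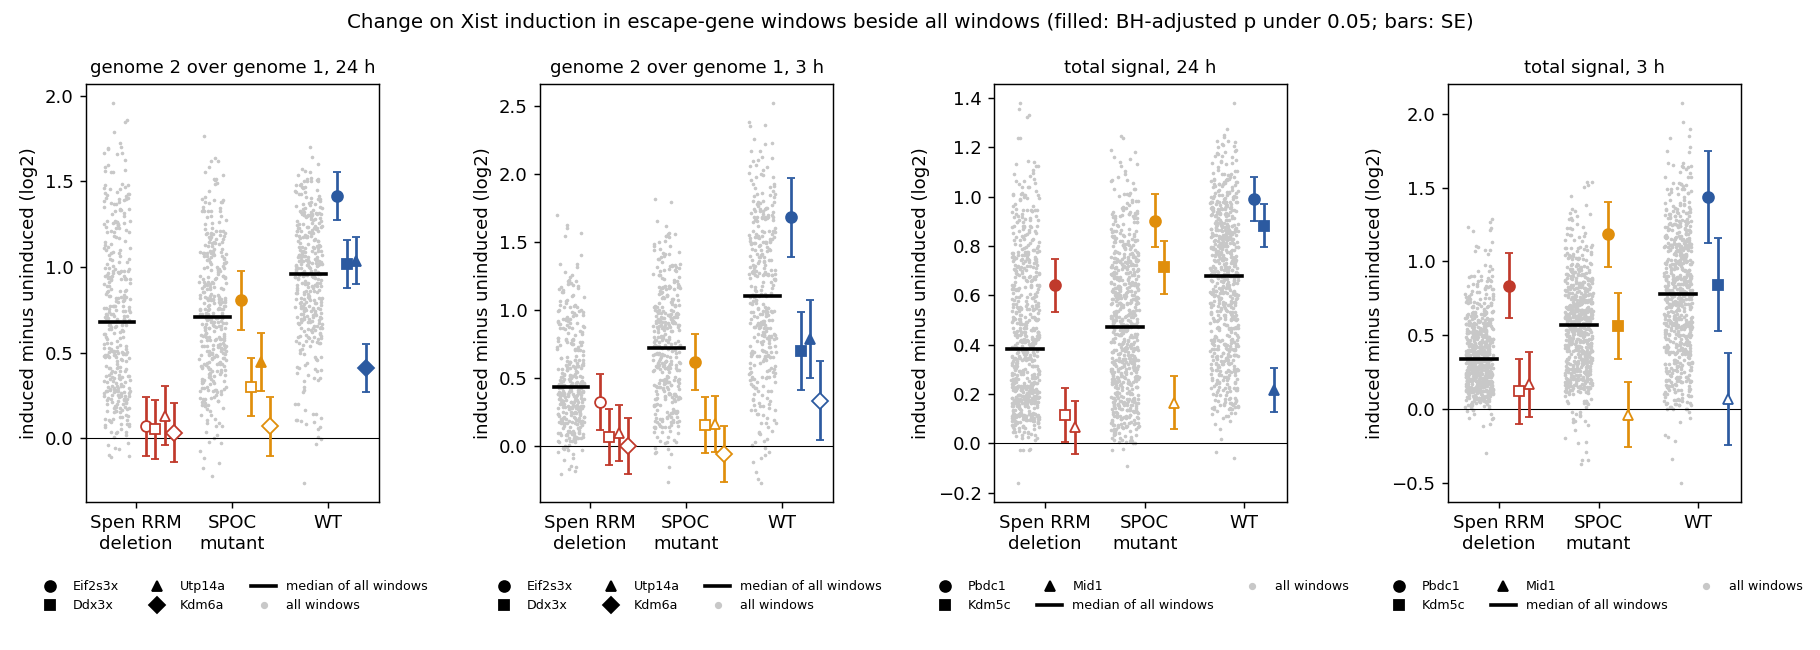
Change on Xist induction (induced minus uninduced, log2) of the genome 2 over genome 1 ratio in 4 escape windows and of total signal in the other 3, at 24 h and 3 h, with SE bars, filled symbols for adjusted p under 0.05, grey points for all windows and a black line at their median. All 4 allelic escape windows lie between 0.03 and 0.13 in Spen RRM deletion clones at 24 h, under the median of 0.68.

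At 3 h the order of the windows in WT cells kept Eif2s3x highest and Kdm6a lowest. WT cells had 1 library per state at 3 h, so the spread of their change is borrowed from the mutant clones. The genome 2 share of Eif2s3x was 59.2% and 52.7% in induced Spen RRM deletion clones C3 and C4, against 52.8% and 48.0% uninduced. It was 68.9% and 68.0% in induced SPOC clones C11 and H1 against 60.2% and 57.0% uninduced, and 80.3% in the induced WT library against 55.8% in the uninduced one. The WT library stood highest, and within every pair the induced library stood above the uninduced one. The change at Eif2s3x was 0.32 ± 0.21 in Spen RRM deletion clones (adjusted p = 0.180), 0.62 ± 0.21 in SPOC clones (adjusted p = 0.0048) and 1.68 ± 0.29 in WT cells (adjusted p = 4.9e-08). With a replicate block, which pairs libraries of a clone, the Spen change passed as well (adjusted p = 0.0047). The SPOC call was lost without clone C11 (0.68, adjusted p = 0.0998) and without clone H1 (0.55, adjusted p = 0.179).

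At the other 3 allelic windows at 3 h, Ddx3x changed by 0.70 ± 0.29 (adjusted p = 0.023) and Utp14a by 0.79 ± 0.29 (adjusted p = 0.0099) in WT cells, where 79.6% of windows rose. The Ddx3x call was lost without either SPOC pair (adjusted p = 0.065). Kdm6a stood at 0.33 ± 0.29 (adjusted p = 0.280), and passed with the replicate block (adjusted p = 0.038). None of the 3 passed in mutant clones, where they lay between -0.0044 and 0.09 in Spen RRM deletion clones and between -0.06 and 0.16 in SPOC clones, while 43.9% and 74.5% of windows rose. The difference of Spen RRM deletion clones from WT cells was called at Eif2s3x (-1.36 ± 0.36, adjusted p = 0.011), as in 13.6% of windows, and not without either SPOC pair. With 1 WT library per state, this p assumes that WT cells vary as the mutant clones do, and the WT change itself has no replicate. In the SPOC difference none of the 4 was called, and 0.283% of all windows were lower. With the replicate block, under the same assumption, 3 of the 4 windows were called in the Spen difference, as in 73.4% of all windows, and 3 of the 4 in the SPOC difference, as in 44.5%.

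Among the 3 genes past the allelic files, total signal at 24 h rose in all of them in WT cells, in Pbdc1 and Kdm5c in SPOC clones and in Pbdc1 alone in Spen RRM deletion clones. Of all 669 windows, 94.8% rose in WT cells, 79.1% in SPOC clones and 68.5% in Spen RRM deletion clones. Total signal adds both alleles and carries the authors' scaling, which is not given in the sources used here.

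Pbdc1 lies in chrX:105000001-105250000 with Magee1 and the noncoding gene 5530601H04Rik, itself listed as an escape gene. Its total signal at 24 h was 349.9 and 366 in induced Spen RRM deletion clones, against 222.8 and 236.3 in uninduced ones. It was 406.4 and 511.1 in induced SPOC clones against 237.6 and 249.2 in uninduced ones, and 419.2, 433 and 509.9 in induced WT replicates against 223.5, 230.5 and 228 in uninduced ones. Induced libraries exceeded all uninduced ones in each genotype. The change was 0.64 ± 0.11 in Spen RRM deletion clones (adjusted p = 1.1e-08), 0.90 ± 0.11 in SPOC clones (adjusted p = 8.1e-16) and 0.99 ± 0.09 in WT cells (adjusted p = 3.5e-28). The Spen change was lower than the WT change by -0.35 ± 0.14 (adjusted p = 0.034), a call lost without Spen clone C3 or D4 or WT replicate 2 or 3, at adjusted p between 0.060 and 0.217.

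Kdm5c encodes a demethylase of histone H3 that acts on a methyl mark of active promoters, and its window (chrX:152250001-152500000) also holds Gpr173 and Tspyl2. Its total signal at 24 h was 264.9 and 281.3 in induced Spen RRM deletion clones, against 243.9 and 261.8 in uninduced ones. It was 415 and 460.8 in induced SPOC clones against 267.9 and 265.1 in uninduced ones, and 426, 449.9 and 541.9 in induced WT replicates against 251.7, 260.2 and 252.6 in uninduced ones. All induced SPOC and WT libraries were above every uninduced one, and every induced Spen library was below them. The change was 0.12 ± 0.11 in Spen RRM deletion clones (adjusted p = 0.324), 0.71 ± 0.11 in SPOC clones (adjusted p = 1.6e-10) and 0.88 ± 0.09 in WT cells (adjusted p = 7.3e-23). The Spen change differed from the WT change by -0.77 ± 0.14 (adjusted p = 5.5e-07), and the SPOC change by -0.17 ± 0.14 (adjusted p = 0.483).

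Mid1 encodes a microtubule-associated ubiquitin ligase near the pseudoautosomal boundary, and was read in chrX:169750001-170000000, which holds no other protein-coding midpoint. Its total signal at 24 h was 453.2 and 489.1 in induced Spen RRM deletion clones, against 435.8 and 466.1 in uninduced ones. It was 406.4 and 573.2 in induced SPOC clones against 368.8 and 503.6 in uninduced ones, and 517.7, 564.3 and 526.7 in induced WT replicates against 481.1, 456.5 and 448.7 in uninduced ones. Only the WT groups did not overlap. The change was 0.07 ± 0.11 in Spen RRM deletion clones (adjusted p = 0.561), 0.17 ± 0.11 in SPOC clones (adjusted p = 0.147, and 0.047 with the replicate block) and 0.22 ± 0.09 in WT cells (adjusted p = 0.015). The WT call was lost without replicate 2 (0.17, adjusted p = 0.155) and without replicate 3 (0.21, adjusted p = 0.159).

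**Figure D3:**
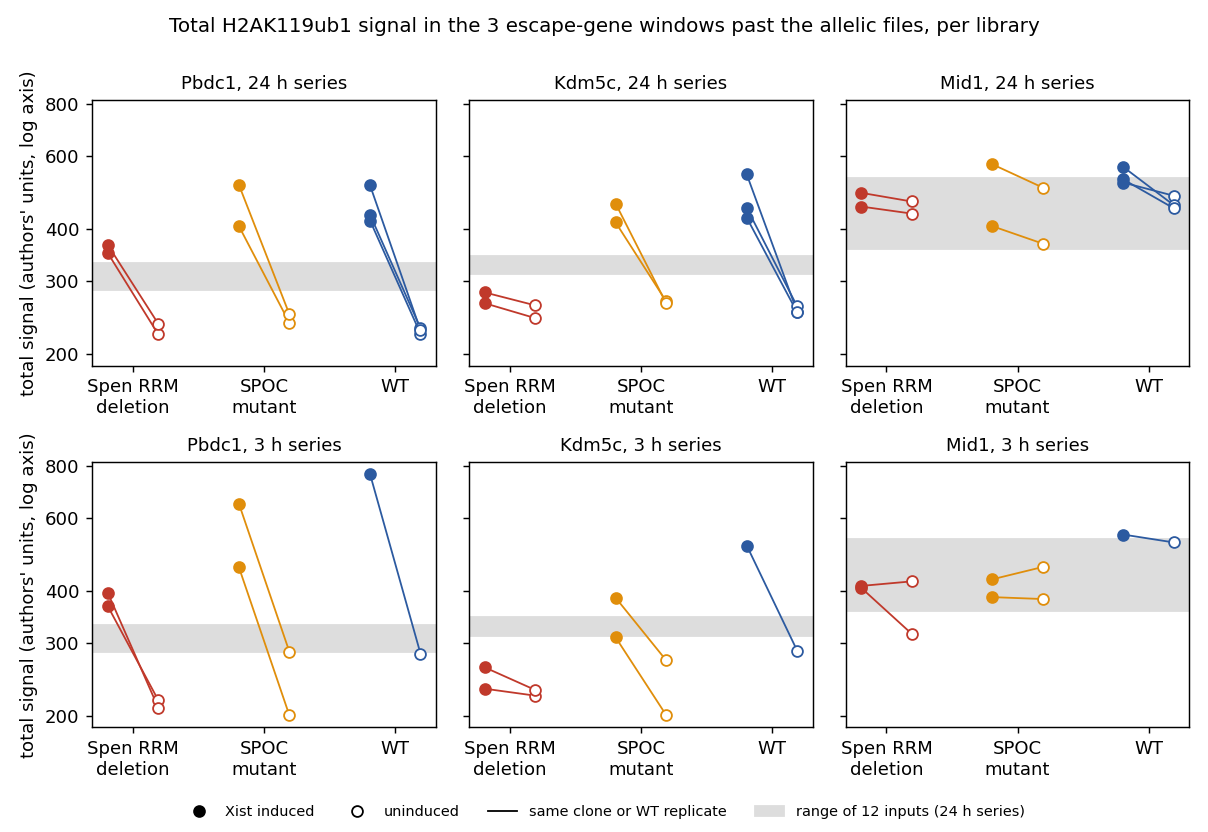
Total H2AK119ub1 signal (authors' units, log axis) in the windows of Pbdc1, Kdm5c and Mid1 in each library, drawn as in the plot of genome 2 shares. Pbdc1 stands higher in every induced library than in the uninduced library of its pair, and Kdm5c in Spen RRM deletion clones at 24 h spans 243.9 to 281.3 over both states.

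Over all 669 windows of total signal at 24 h, 68.5% rose in Spen RRM deletion clones (median 0.38), 79.1% in SPOC clones (median 0.47) and 94.8% in WT cells (median 0.68). Pbdc1 was above the median in all 3 genotypes, Kdm5c in SPOC and WT cells, and Mid1 in none. Their midpoints lie 1.627 Mb (Pbdc1), 48.784 Mb (Kdm5c) and 66.366 Mb (Mid1) past that of Xist. Whether this distance bears on the changes was not tested. In the comparison of Spen RRM deletion clones with WT cells 34.7% of windows were lower, and 2 of the 3 genes were among them. In that of SPOC clones with WT cells 4.78% were lower and none of the 3.

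At 3 h total signal of Pbdc1 changed by 0.83 ± 0.22 in Spen RRM deletion clones (adjusted p = 0.0033), 1.18 ± 0.22 in SPOC clones (adjusted p = 2.9e-06) and 1.44 ± 0.31 in WT cells (adjusted p = 7.7e-05). The Spen call was lost without clone C3 (0.92, adjusted p = 0.466) and without clone C4 (0.75, adjusted p = 0.991). Kdm5c changed by 0.56 ± 0.22 in SPOC clones (adjusted p = 0.021) and 0.84 ± 0.31 in WT cells (adjusted p = 0.016), and stood at 0.12 ± 0.22 in Spen RRM deletion clones (adjusted p = 0.657). Both Kdm5c calls were lost without either Spen pair, with adjusted p of 0.116 in SPOC clones and 0.102 in WT cells. Mid1 stood at 0.17, -0.04 and 0.07 in Spen RRM deletion clones, SPOC clones and WT cells, none of them called. At 3 h 19.4% of windows rose in Spen RRM deletion clones, 60.1% in SPOC clones and 58.6% in WT cells. Of the 669 windows of total signal, 0 were called in the differences between mutant clones and WT cells at 3 h in limma, while 57 windows in the Spen comparison and 1 in the SPOC comparison had an unadjusted p under 0.05. With the replicate block 2 of the 3 genes were lower in the Spen comparison, as were 58.3% of all windows, with the spread of the single WT pair again taken from the mutant clones.

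To see whether the escape windows stood apart from their surroundings, each was set against the mean of the windows up to 2 places to each side. In SPOC clones at 24 h the allelic change of Utp14a was lower than around it (-0.45 ± 0.07, adjusted p = 0.0010), as was that of Eif2s3x (-0.32 ± 0.09, adjusted p = 0.034), where 5.97% of windows were lower. The Utp14a call was lost without clone E7 (-0.40, adjusted p = 0.071) and with 1 neighbour to each side (-0.27, adjusted p = 0.096). The Eif2s3x call was lost without clone E7 (-0.40), clone H1 (-0.24), WT replicate 1 or WT replicate 2, with 4 neighbours to each side (-0.22, adjusted p = 0.104) and with the replicate block (adjusted p = 0.066). In WT cells, where 4.55% of windows were lower, no allelic escape window passed, with Ddx3x at -0.23 ± 0.08 (adjusted p = 0.075), Utp14a at -0.19 ± 0.06 (adjusted p = 0.052), Kdm6a at -0.12 ± 0.10 and Eif2s3x at 0.05 ± 0.07. In Spen RRM deletion clones the 4 lay between -0.24 and -0.07 with none called, while 5.97% of windows were lower. With 4 neighbours to each side Utp14a (-0.36) and Eif2s3x (-0.42) were called in Spen RRM deletion clones. Set against neighbours, the difference of the Spen change from the WT change passed in none of the 4 allelic windows. It was -0.01 at Kdm6a, 0.10 at Ddx3x, 0.12 at Utp14a and -0.29 at Eif2s3x. Of all windows 4.26% were lower and 2.27% higher in this difference. With 4 neighbours to each side 1 of the 4 was called. In limma 50 of 352 windows in WT cells and 53 in Spen RRM deletion clones were lower at an unadjusted p under 0.05.

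In total signal at 24 h, the local change of Kdm5c was -0.21 ± 0.03 in WT cells (adjusted p = 4.1e-05) and that of Mid1 was -0.48 ± 0.07 (adjusted p = 1.3e-05), where 21% of windows were lower. In Spen RRM deletion clones it was lower at Pbdc1 (-0.14 ± 0.04, adjusted p = 0.0073) and Mid1 (-0.25 ± 0.09, adjusted p = 0.031), as in 15.1% of windows. In SPOC clones it was lower at Pbdc1 (-0.12 ± 0.04, adjusted p = 0.021) and Mid1 (-0.34 ± 0.09, adjusted p = 0.0045), as in 16.9% of windows. The Spen calls were lost without clone D4 in both genes (-0.11 and -0.25) and in Mid1 without clone C3 (-0.24), and the SPOC calls without clone E7 (-0.06 and -0.29). With 1 neighbour to each side Mid1 was not called in either mutant (-0.18 in Spen RRM deletion clones and -0.20 in SPOC clones). With 4 neighbours to each side no Spen or SPOC value of these 3 genes passed, and Pbdc1 stood at 0.08 in Spen RRM deletion clones. The local difference of Spen RRM deletion clones from WT cells was 0.25 ± 0.05 at Kdm5c (adjusted p = 0.0017), with 9.88% of windows higher, and -0.15 ± 0.05 at Pbdc1 (adjusted p = 0.034), with 12% lower. The Pbdc1 value lost its call without each of the 5 Spen and WT pairs in turn, at values between -0.19 and -0.12, and with 4 neighbours to each side it turned to 0.15 (adjusted p = 0.029). The same local difference between SPOC clones and WT cells, which was not among the planned tests, was 0.20 ± 0.05 at Kdm5c (adjusted p = 0.024), where 2.84% of windows were higher. The subtracted neighbours hold part of some genes themselves. The window read holds 29.1 kb of the 45.9 kb of Kdm5c, 240.8 kb of the 305.6 kb of Mid1 and 89.1 kb of the 119.1 kb of Kdm6a. The promoter of Kdm5c and the first promoter of Mid1 lie in the window before, which is among those subtracted.

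The neighbouring windows give the values behind this. Next to Ddx3x, the window of Usp9x, a deubiquitinase gene, changed by 0.07 ± 0.17 in Spen RRM deletion clones, 0.32 ± 0.17 in SPOC clones and 1.30 ± 0.14 in WT cells. That of Cask on the other side changed by 0.14 ± 0.17 in Spen RRM deletion clones, 0.88 ± 0.17 in SPOC clones and 1.48 ± 0.14 in WT cells. The window after Eif2s3x, with Klhl15, changed by 0.31 ± 0.17 in Spen RRM deletion clones, 1.59 ± 0.17 in SPOC clones and 1.48 ± 0.14 in WT cells. The windows before and after Kdm6a changed by 0.11 ± 0.17 and 0.23 ± 0.17 in Spen RRM deletion clones, against 0.03 in its own window. They changed by 0.30 ± 0.17 and 0.24 ± 0.17 in SPOC clones, against 0.07, and by 0.38 ± 0.14 and 0.40 ± 0.14 in WT cells, against 0.41. The local value of Kdm6a in SPOC clones was -0.33 ± 0.12 (adjusted p = 0.102). The window before Kdm5c, which holds its promoter and Smc1a, changed in total signal by 0.10 ± 0.11 in Spen RRM deletion clones, 0.98 ± 0.11 in SPOC clones and 1.20 ± 0.09 in WT cells. The window before Mid1, which holds its first promoter, changed by 0.51 ± 0.11, 0.82 ± 0.11 and 1.11 ± 0.09 in Spen RRM deletion clones, SPOC clones and WT cells, and the window after it by -0.03 ± 0.11, -0.09 ± 0.11 and -0.06 ± 0.09. Mid1 thus sits where the total change steps down toward the end of the chromosome.

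**Figure D4:**
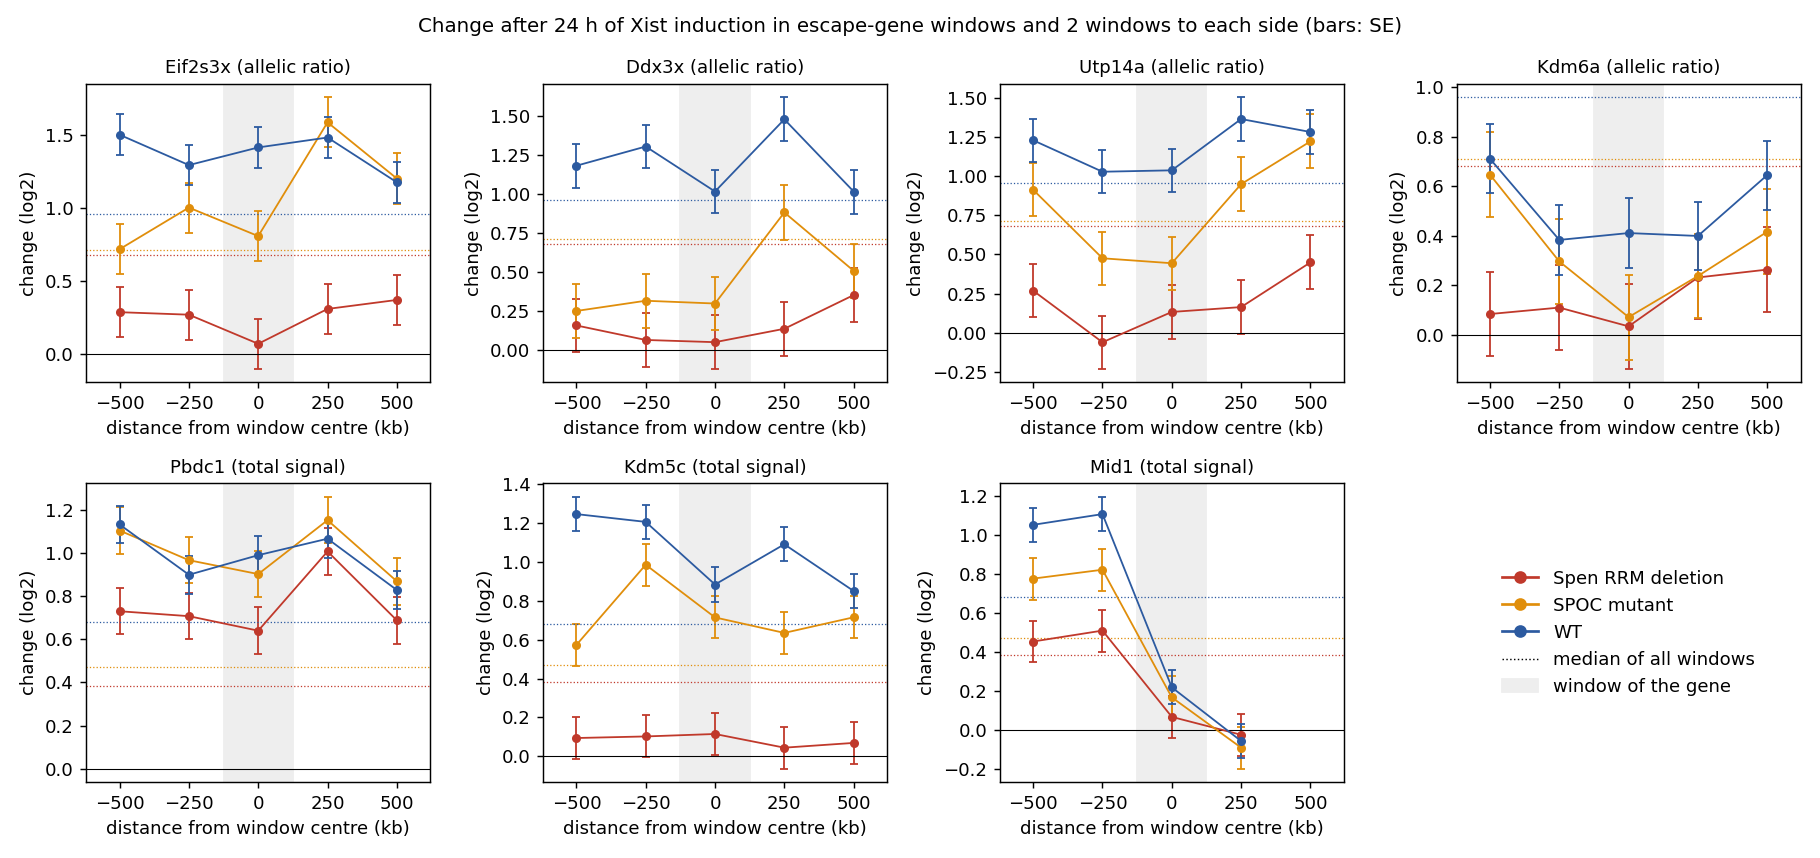
Change after 24 h of Xist induction (log2, with SE bars) in each escape window, shaded, and in the windows up to 500 kb to each side, with dotted lines at the median of all windows. The Spen RRM deletion line lies between -0.06 and 0.45 around Eif2s3x, Ddx3x, Utp14a and Kdm6a, while around Pbdc1 it lies between 0.64 and 1.01, and around Mid1 all 3 lines step down.

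The windows whose centred allelic ratio followed that of a member most closely over the 24 H2AK119ub1 libraries were, for Ddx3x and Utp14a, the window that holds Gata1, Hdac6 and Pqbp1 (Pearson r = 0.942 and 0.907). For Kdm6a it was the window of Lancl3 (r = 0.96), followed by that of Bcor (r = 0.941), and for Eif2s3x the window of Nono, Med12 and Il2rg (r = 0.865). In log2 total signal, centred likewise, Pbdc1 was closest to the window of Hdac8 (r = 0.954) and Kdm5c to that of Hprt and Plac1 (r = 0.897). Mid1 was closest to a window with no protein-coding midpoint (r = 0.927). Among the members, Ddx3x and Utp14a went together in the centred allelic ratio (r = 0.906), and Eif2s3x and Kdm6a did not (r = -0.194). These correlations describe libraries that share genotype, state and handling, and windows that share a library.

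For comparison, of 8 other genes listed as escaping in mouse, 7 lie outside the windows above, with Xist, Jpx, 1810030O07Rik, Bgn and Shroom4 in 4 kept allelic windows. At 24 h 1 of those 4 windows rose in Spen RRM deletion clones (median 0.25, Shroom4 at 0.49 ± 0.17), 4 in SPOC clones (median 0.63) and 4 in WT cells (median 1.13), and all 4 were lower in Spen RRM deletion clones than in WT cells (median -0.81, against -0.16 over all windows). Over all 353 allelic windows 70.8%, 83.3% and 94.6% rose in these 3 genotypes, and 23.5% were lower in Spen RRM deletion clones than in WT cells. Of 10 genes that escape in human and are silenced in mouse, 9 lie outside the 7 escape windows, in 8 windows of total signal. Usp9x and Smc1a among them lie in the windows next to those of Ddx3x and Kdm5c, given above. The remaining gene, Zfx, shares the window of Eif2s3x. At 24 h 2 of the 8 rose in Spen RRM deletion clones (median 0.18, Rps4x at 0.23 ± 0.11 and Zrsr2 at 0.26 ± 0.11), 7 in SPOC clones (median 0.47) and 8 in WT cells (median 0.91), while over all windows 68.5%, 79.1% and 94.8% rose. All 8 were lower in Spen RRM deletion clones than in WT cells (median -0.75, against -0.16 over all 669 windows, of which 34.7% were lower), with Smc1a at -1.10 ± 0.14 and Txlng and Syap1, in 1 window, at -1.16 ± 0.14. The 2 lists are thus given in unlike measures. In total signal the median of this difference was -0.56 over 6 windows of the mouse list. In the allelic ratio it was -1.04 over 3 windows of the human list.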

How the data were processed

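Native ChIP-seq signal for H2AK119ub1 (24 libraries) and input (12) was analysed over 250 kb windows of chromosome X. The values are the authors' deposited signal per window, one file for all reads and one for each allele (genome 1 and genome 2), and are not counts. Per the submitters' processing notes the tools included Bowtie2 2.2.6, Picard and bedtools, with build mm10; how the signal was scaled is not given in the sources used here. The Drosophila spike-in named in the labels' protocols was not used here, and whether the deposited signal already carries it is not given in the sources used.

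A pseudocount of 1% of a file's median window was added, windows under 10% of the median were left out, and log2 values were fitted with limma 3.58.1 (R 4.3.3), 6 groups per series, two-sided, Benjamini-Hochberg adjusted at 0.05 over all windows kept. The fit was tested on simulated data with changes added to the induced Spen RRM deletion libraries, and only the Spen change was read. WT changes and differences between genotypes were not tested in this way. Local values subtract the mean of up to 2 kept neighbours to each side. Alternatives were the pseudocount, filter, centring, input subtraction (which leaves out WT replicate 3, without input), neighbour width, SPOC states as titled, each replicate left out, and a replicate block. The block pairs libraries of the same clone, which are the same cell line, or WT replicate number. Deviations of paired WT libraries correlated at -0.0093, -0.1 and 0.027 in the allelic ratio and at 0.42, 0.067 and 0.49 in total signal. Those of the clone pairs correlated in the allelic ratio at -0.00069 (Spen) and 0.11 (SPOC) at 24 h and 0.16 and 0.31 at 3 h, and in total signal at 0.33 and 0.59 at 24 h and 0.0048 and 0.57 at 3 h; with 2 clones, both pairs of a genotype give 1 value.

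The genes and lists were chosen with earlier results of these data known. The naming rule took the 7 genes, protein-coding genes in their own or the neighbouring windows, the genes of both lists, and, for likeness, the 3 windows outside these neighbourhoods with the highest Pearson r over 24 libraries, of which the first (for Kdm6a also the second) is given.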

Additional observations from a re-analysis of the deposited data

Results flagged for a closer look

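Each value here is a difference between the changes on Xist induction of 2 genotypes. Each passed the threshold of limma in the main fit (Benjamini-Hochberg adjusted p under 0.05), by a test of the difference itself. In the allelic ratio at 24 h the change in Spen RRM deletion clones was below that in WT cells at Ddx3x (-0.964), Utp14a (-0.905) and Eif2s3x (-1.34), and at 3 h at Eif2s3x (-1.36). In that 3 h value WT cells have 1 library per state, so the test assumes that they vary as the mutant clones do, and the WT change has no replicate of its own. The change in SPOC clones was below that in WT cells at Ddx3x (-0.717), and the change in Spen RRM deletion clones was below that in SPOC clones at Eif2s3x (-0.738), both with SPOC states taken from file names. In total signal at 24 h the change in Spen RRM deletion clones was below that in WT cells at Pbdc1 (-0.35) and Kdm5c (-0.767). Against neighbouring windows the same difference was -0.152 at Pbdc1 and 0.251 at Kdm5c, and SPOC clones stood above WT cells at Kdm5c by 0.201, a difference that was not planned and was not recomputed under the alternatives. The neighbouring windows of Kdm5c include the one that holds its promoter. At 24 h an effect of genotype and one of its occasion cannot be told apart. The calls at Pbdc1 (total and local), Ddx3x for SPOC clones, and Eif2s3x at 3 h and against SPOC clones were lost when certain single pairs were left out. The local Pbdc1 difference turned sign with 4 neighbours to each side. Of all allelic windows at 24 h, 23.5% were lower in Spen minus WT, 5.1% in SPOC minus WT and 6.52% in Spen minus SPOC. In total signal 34.7% were lower in Spen minus WT, and locally 12% were lower and 9.88% higher.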

How the results depend on the processing

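Named here are the 7 escape windows, with calls counted over the 4 allelic windows or the 3 read as total signal, changes given by genotype alone, and each count covering both directions. The lower allelic rise in Spen RRM deletion clones than in WT cells at 24 h kept its 3 calls under every alternative run, as did the 4 allelic calls in WT cells except with centred libraries (2, of which 1 lower) and with the own input subtracted (3); the input fit also leaves out WT replicate 3, which has no input, and leaving out that replicate alone kept all 4. The cause of each change below was not tested. With each library centred on its median window, allelic values at 24 h gave calls of 2 in WT, 4 in Spen, 3 in SPOC, 0 in SPOC minus WT and turned sign in WT Kdm6a -0.57, in Spen Kdm6a -0.62, Ddx3x -0.60, Utp14a -0.52, Eif2s3x -0.58, in SPOC Kdm6a -0.65, Ddx3x -0.42, Utp14a -0.28. There, allelic values at 3 h gave calls of 3 in WT, 3 in Spen, 3 in SPOC and turned sign in WT Kdm6a -0.77, Ddx3x -0.41, Utp14a -0.32, in Spen Ddx3x -0.37, Utp14a -0.34, Eif2s3x -0.11, in SPOC Ddx3x -0.55, Utp14a -0.55, Eif2s3x -0.090. There, total values at 24 h gave calls of 2 in Spen, 1 in Spen minus WT and turned sign in WT Mid1 -0.52, in Spen Kdm5c -0.43, Mid1 -0.48, in SPOC Mid1 -0.42, in Spen minus WT Mid1 0.046, in SPOC minus WT Pbdc1 0.062, Mid1 0.10. There, total values at 3 h gave calls of 2 in Spen and turned sign in WT Kdm5c -0.00033, Mid1 -0.78, in Spen Kdm5c -0.32, Mid1 -0.27, in SPOC Kdm5c -0.062. With SPOC states as titled, allelic values at 24 h gave calls of 2 in SPOC, 4 in SPOC minus WT, 2 in Spen minus SPOC and turned sign in SPOC Kdm6a -0.070, Ddx3x -0.30, Utp14a -0.44, Eif2s3x -0.81, in Spen minus SPOC Eif2s3x 0.88. There, total values at 24 h gave calls of 2 in SPOC, 3 in SPOC minus WT and turned sign in SPOC Pbdc1 -0.90, Kdm5c -0.71, Mid1 -0.17. There, local allelic values at 24 h gave calls of 2 in SPOC and turned sign in SPOC Kdm6a 0.33, Ddx3x 0.19, Utp14a 0.45, Eif2s3x 0.32. There, local total values at 24 h gave calls of 2 in SPOC and turned sign in SPOC Pbdc1 0.12, Kdm5c 0.013, Mid1 0.34. In the input fit, which has no WT replicate 3, allelic values at 24 h gave calls of 0 in SPOC minus WT, 0 in Spen minus SPOC (2 and 1 with that replicate left out alone) and turned sign in SPOC Kdm6a -0.30. There, total values at 24 h gave calls of 1 in Spen minus WT and turned sign in SPOC minus WT Mid1 0.028. Without the filter on low windows, allelic values at 24 h gave calls of 0 in SPOC minus WT, 0 in Spen minus SPOC. With the replicate block, allelic values at 3 h gave calls of 1 in Spen, 3 in Spen minus WT, 3 in SPOC minus WT. There, total values at 3 h gave calls of 2 in Spen minus WT. There, local allelic values at 24 h gave calls of 1 in SPOC. With 1 neighbour to each side, local allelic values at 24 h gave calls of 1 in WT, 1 in SPOC and turned sign in WT Kdm6a 0.020, in Spen Utp14a 0.081. There, local total values at 24 h gave calls of 1 in Spen, 1 in SPOC. With 4 neighbours to each side, local allelic values at 24 h gave calls of 1 in WT, 2 in Spen, 1 in Spen minus WT and turned sign in Spen minus WT Kdm6a 0.033, Ddx3x -0.21, Utp14a -0.17. There, local total values at 24 h gave calls of 0 in Spen, 0 in SPOC and turned sign in WT Pbdc1 -0.077, in Spen Pbdc1 0.075, in Spen minus WT Pbdc1 0.15. With a pseudocount of 5% of the median window, allelic values at 3 h turned sign in Spen Kdm6a 0.022. Leaving out each replicate in turn moved counts of called windows as follows, allelic SPOC, 24 h 1 to 3, allelic SPOC minus WT, 24 h 0 to 2, allelic Spen minus SPOC, 24 h 0 to 1, allelic SPOC, 3 h 0 to 1, allelic Spen minus WT, 3 h 0 to 1. Further such ranges of counts were allelic SPOC minus WT, 3 h 0 to 1, total Spen minus WT, 24 h 1 to 2, total WT, 3 h 1 to 2, total Spen, 3 h 0 to 1, total SPOC, 3 h 1 to 2. Further such ranges of counts were total Spen minus WT, 3 h 0 to 2, local allelic SPOC, 24 h 0 to 2, local total Spen, 24 h 0 to 2, local total SPOC, 24 h 0 to 2, local total Spen minus WT, 24 h 1 to 2. The count for total WT, 24 h also moved, from 2 to 3, through the Mid1 call, and that for allelic WT, 3 h through the Ddx3x call. Leaving out each replicate also turned the sign of uncalled log2 values, over ranges of Kdm6a allelic Spen, 24 h -0.14 to 0.20, Ddx3x allelic Spen, 24 h -0.049 to 0.15, Eif2s3x allelic Spen, 24 h -0.12 to 0.25, Kdm6a allelic Spen, 3 h -0.14 to 0.13, Kdm6a allelic SPOC, 3 h -0.19 to 0.066. Such ranges were also Pbdc1 total SPOC minus WT, 24 h -0.22 to 0.042, Mid1 total Spen, 3 h -0.035 to 0.37, Mid1 total SPOC, 3 h -0.094 to 0.018, Kdm6a local allelic WT, 24 h -0.22 to 0.0065, Ddx3x local allelic Spen, 24 h -0.26 to 0.0093. Such ranges were also Kdm6a local allelic Spen minus WT, 24 h -0.14 to 0.11, Ddx3x local allelic Spen minus WT, 24 h -0.035 to 0.24, Pbdc1 local total WT, 24 h -0.0012 to 0.018, Kdm5c local total SPOC, 24 h -0.035 to 0.0094. The filter at 25% of the median window, a pseudocount of 0.1% of it, and leaving out the SPOC libraries of the 24 h series changed no call and no direction, the last chosen after the data were seen. The window holding most of each gene is the one already used for all 7, so it gave no other value. With the replicate block no call was lost other than Eif2s3x in the local allelic SPOC change (adjusted p = 0.066). In both series, leaving out 1 Spen or SPOC clone leaves 1 pair for that genotype, whose spread is then taken from the other groups, as is that of WT cells in every 3 h fit. The number of reads behind a window is unknown, so no counting error can be given.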

Other observations

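In input DNA, total signal in the Mid1 window ranged between 358.1 and 532 over 12 libraries with a median of 485.2, a wider range than in the windows of Pbdc1 (285.2 to 331.6) and Kdm5c (310.9 to 345.2). Its input means were 410.7 and 422.6 in induced and uninduced SPOC clones, and between 486.8 and 511.4 in the groups of Spen RRM deletion clones and WT cells. Log2 total signal, centred on each library's median window, was also correlated between windows over the 24 H2AK119ub1 libraries. Mid1 and Kdm6a gave a Pearson r of 0.937, and Kdm5c and Eif2s3x an r of 0.836. Centring subtracts the same value from every window of a library, so windows that change little share that term. These values describe libraries that share genotype, state and handling.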
